A study of Mus musculus with 14 samples.

Results

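The nuclear-encoded subunits of oxidative phosphorylation were followed in the epithelium of the developing mouse bladder and urethra. Members were the genes whose symbols belong to the Nduf, Sdh, Uqcr, Cox4 to Cox8 and Atp5 families in both deposited count tables and that reached 10 counts in at least 3 of the 14 libraries. Of 55228 genes in each table, 84 matched by name and 80 passed the count rule. They comprised 35 genes of complex I, 4 of complex II, 8 of complex III, 16 of complex IV, with Ndufa4 counted there, and 17 of complex V. Members were thus chosen by symbol and selected on their counts alone, and the rule used no contrast: all 80 members had 10 counts or more in every one of the 14 libraries, and the lowest count of a member in a library was 20. The family and its rule were, however, chosen with earlier results of these data known. The members with the fewest reads over all libraries were Cox6c2, with 1029 counts, and Cox7a1, with 1410. The name-matched genes nearest to passing were Cox6a2, with 40 counts and 2 libraries at the minimum, and Cox8b, with 42 counts and 1 library. Cox7b2 (16 counts over all libraries) and Cox8c (0 counts) also stayed outside.

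RNA-seq of poly(A) RNA was made from epithelium that had been peeled from the mesenchyme after trypsin digestion. All tissue came from untreated wild-type female CD-1 embryos, an outbred strain, and each library pooled the females of a litter, so that single animals cannot be seen. The groups were bladder epithelium at embryonic day 14.5 (E14.5, 4 libraries), urethral epithelium at E14.5 (4 libraries), bladder epithelium at E18.5 (3 libraries) and urethral epithelium at E18.5 (3 libraries). The design text gives separate litters as replicates, whereas the extraction notes name 3 litters for each kind of sample.

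Oxidative phosphorylation passes electrons from NADH and succinate through complexes I and II to ubiquinone, on through complex III and cytochrome c to complex IV, and uses the resulting proton gradient at complex V to make ATP. Most subunits are encoded in the nucleus and imported, a few in mitochondrial DNA, and several subunits of complex IV are encoded by a widely expressed gene and by an alternate gene enriched in muscle, lung or testis. Many of the nuclear promoters carry sites for nuclear respiratory factor 1 (NRF1) and for GABPA, and the co-activator Ppargc1a is known to raise these genes together.

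Start-site sequence is shown first, for letters that several members share and for an isoform pair. A link between these letters and the tissue differences was not tested. RefSeq windows of GRCm38.p6, from 250 bases before to 50 after the start site, were matched by symbol for 65 of the 80 members. The NRF1 core letters GCATGCGC, read on both strands, stood in 10 of these 65 (15.4%), against 3.05% of 27025 genes with such windows. CCGGAAG, the letters bound by GABPA, stood in 26.2% of members and 9.93% of genes, and AAGATGGCG, those of YY1, in 10.8% and 1.64%. The general promoter letters CCAAT (44.6% and 41.1%), GGGCGG (40.0% and 38.2%) and TATAAA (9.23% and 15.7%) were nearer to the share in all genes. A match describes the letters in the window and is not a measured binding site. Capitals below mark the NRF1 core, extended to GCGCATGCGC where the reads of both strands overlap, and no match shown overlaps CCGGAAG. The first 4 belong to members that were higher in bladder at E14.5, as 66 of the 80 members were. The last belongs to Ndufa6, a member that was not.
Atp5g2 (chr15:102671070-102671099, minus strand): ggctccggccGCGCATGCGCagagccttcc
Atp5k (chr5:108434430-108434459, minus strand): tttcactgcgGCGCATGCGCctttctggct
Cox6a1 (chr5:115349101-115349130, minus strand): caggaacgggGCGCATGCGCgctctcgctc
Ndufa11 (chr17:56717692-56717721, plus strand): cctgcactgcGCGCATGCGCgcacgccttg
Ndufa6 (chr15:82354356-82354385, minus strand): tccgcggtagaGCATGCGCattgcagagcc

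The upstream stretches of Cox7a1 and Cox7a2, the muscle-enriched and the widely expressed form of the same complex IV subunit, had none of the NRF1, GABPA or YY1 letters. Capitals mark CCAAT on the reverse strand (ATTGG as printed) in Cox7a1 and GGGCGG in Cox7a2.
Cox7a1 (chr7:30183921-30184143, plus strand): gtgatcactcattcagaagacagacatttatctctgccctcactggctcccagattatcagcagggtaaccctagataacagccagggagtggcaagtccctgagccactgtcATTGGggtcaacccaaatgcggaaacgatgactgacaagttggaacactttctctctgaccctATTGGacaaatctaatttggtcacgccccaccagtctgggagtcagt
Cox7a2 (chr9:79759879-79760103, minus strand): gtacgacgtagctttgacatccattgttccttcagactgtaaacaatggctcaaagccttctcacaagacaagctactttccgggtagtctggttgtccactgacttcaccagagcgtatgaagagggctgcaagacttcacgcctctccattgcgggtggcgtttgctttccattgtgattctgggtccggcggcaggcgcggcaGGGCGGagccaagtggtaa

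Library totals ran from 21.1 M to 36.8 M counts (M for 1000000), and the 80 members took 0.88% to 1.17% of them. The 13 protein genes of mitochondrial DNA have rows in the tables, each with 0 counts in all 14 libraries, so the nuclear and mitochondrial subunits could not be set side by side. The 7 pan-epithelial markers (Epcam, Cdh1 and others) were present in each group. They summed to between 1656 and 4639 CPM (counts per 1000000, on effective library sizes). Their level was not equal between the groups. At E14.5 bladder had a mean sum of 4353 CPM, above the 2347 CPM of urethra. At E18.5 the order was reversed, with a mean of 3026 CPM for bladder and 3868 CPM for urethra. Mesenchymal markers were present in every library and followed tissue and stage. The 15 genes of that list added up to 982 to 4538 CPM (bladder) and 2332 to 6527 CPM (urethra) at E14.5, and to 20240 to 31058 CPM (bladder) and 4651 to 5666 CPM (urethra) at E18.5, with none of the 15 at 0 in a group.

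On the trimmed-mean scale, which sets each gene against the others, nuclear oxidative phosphorylation subunits were more abundant in bladder than in urethral epithelium at both stages. Summed over the 80 members, the 4 bladder libraries at E14.5 held 11783, 11607, 11839 and 11730 CPM, and the 4 urethra libraries 9383, 8213, 8180 and 8125 CPM. At E18.5 the bladder libraries held 12483, 12563 and 12070 CPM and the urethra libraries 8679, 9843 and 8645 CPM. The groups did not overlap at either stage, and the ratio of the means was 1.39 at E14.5 and 1.37 at E18.5. In bulk tissue, fewer cells of a type and less RNA per cell cannot be told apart.

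**Figure D1:**
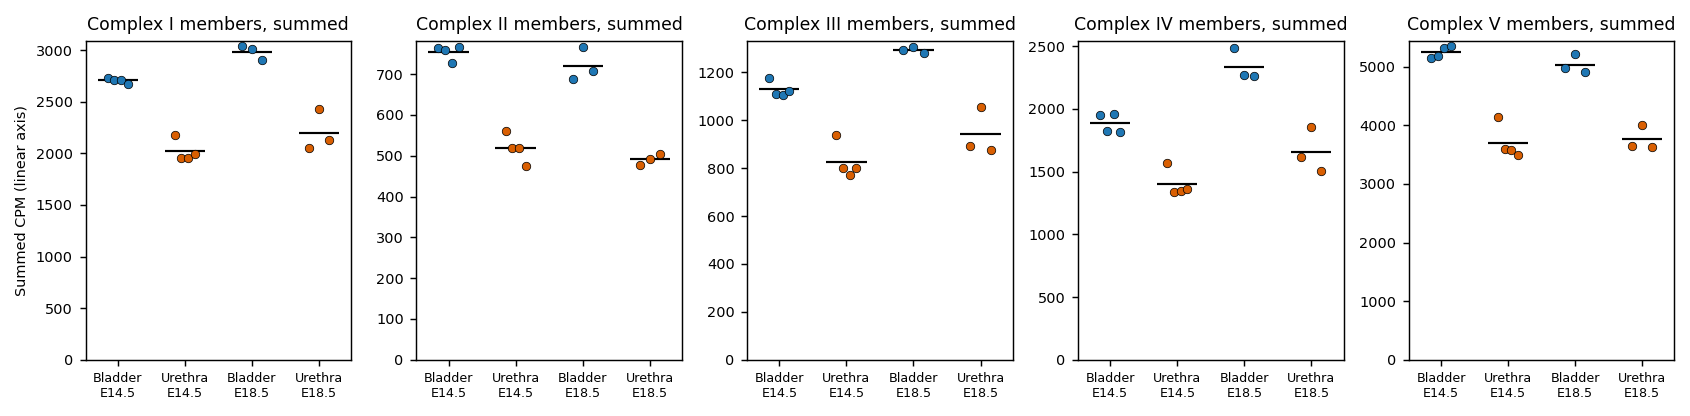
Summed CPM of the members of each complex (linear axis from 0), with 1 point per library and a line at the group mean, for bladder and urethra at E14.5 (4 libraries each) and E18.5 (3 each). Bladder libraries lie above urethra libraries of the same stage in all 5 complexes on this scale, which is the trimmed-mean scale and not the pan-epithelial one, and complex IV rises from 1819 to 1961 CPM in bladder at E14.5 to 2262 to 2487 CPM at E18.5.

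Gene by gene at E14.5, 66 of the 80 members were higher in bladder and 2 in urethra at a Benjamini-Hochberg adjusted p under 0.05 in edgeR's quasi-likelihood test, which is what "called" means below. Over all 16697 genes tested 44.0% were called, 23.1% higher in bladder and 20.9% higher in urethra. The median log2 fold change of the members was 0.41, against -0.035 over all genes. In 71 members every bladder library lay above every urethra library and in 2 below, against 22.9% and 17.6% of genes. The call held in each fit that left out 1 library for 54 of the members higher in bladder.

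At E18.5, 51 members were higher in bladder and 1, Ndufa6, higher in urethra, where 37.9% of 17513 genes were called, 19.3% higher in bladder and 18.6% higher in urethra. The median over the members was 0.40, against -0.026 over all genes. In 73 members every bladder library lay above every urethra library and in 2 below, against 27.6% and 23.4% of genes. With 3 libraries a group the count depended on single libraries: it was 23 without urethra replicate 1, 24 without urethra replicate 3, 31 without bladder replicate 2 and 67 without urethra replicate 2, and 20 members were called higher in bladder in each of the 6 such fits.

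At both stages together, 46 members were called higher in bladder, where 7.98% of the 16343 genes tested at both stages were. These 46 included all 4 subunits of complex II, and 8 members (Ndufs4, Ndufb2, Ndufc1, Uqcrh, Ndufa4, Cox6c2, Cox7a2l and Atp5md) were called at neither stage. The direction at E14.5 holds relative to the other genes and flips when libraries are scaled to the 7 pan-epithelial markers. That scaling moved the median of all genes to -0.986 and gave 1 member higher in bladder and 38 higher in urethra. Of 16697 genes, it called 540 higher in bladder and 11293 higher in urethra. The distance of the members' median from the all-gene median was 0.45 on either scale at E14.5 and 0.42 on either scale at E18.5. At E18.5 the pan-epithelial scale gave 78 members higher in bladder and 0 in urethra, against 5144 and 1338 of 17513 genes.

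**Figure D2:**
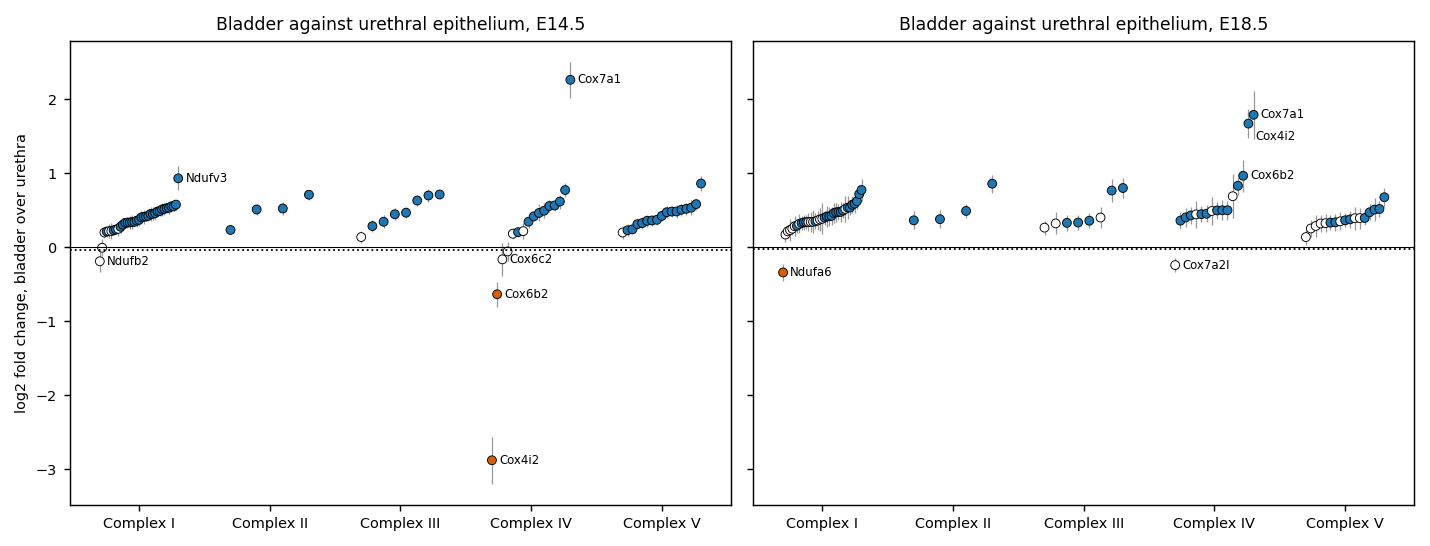
log2 fold change of bladder over urethra for each of the 80 members, by complex and in rising order, with bars of 1 standard error, at E14.5 (left) and E18.5 (right). Filled points are called (blue higher in bladder, orange higher in urethra), open points are not, and the dotted line is the median of all genes; most members sit between 0.2 and 0.6, a placement that at E14.5 drops below 0 on the pan-epithelial scale, while Cox7a1, Cox4i2 and Cox6b2 stand apart.

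Complex I, which oxidises NADH, had 29 of 35 members called higher in bladder and 0 called higher in urethra at E14.5, with 21 and 1 at E18.5. All 7 core subunits, which carry the flavin and iron-sulphur centres, were called at E14.5 (median log2 0.51) and 4 of 7 at E18.5, and 22 and 17 of the 28 accessory subunits. Ndufv1, the flavin-bearing NADH site, read 173, 186, 174 and 179 CPM in bladder and 127, 114, 118 and 117 CPM in urethra at E14.5. The groups were well apart, with a log2 fold change of 0.55 ± 0.061 (SE, adjusted p = 0.000528).

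Ndufv3, a small accessory subunit near that site, had the largest difference of complex I at E14.5. Its bladder libraries held 126, 100.2, 77.8 and 101 CPM and its urethra libraries 65.9, 50.4, 45.8 and 46.2 CPM, a log2 fold change of 0.93 ± 0.16 (adjusted p = 0.00282). Ndufa9, an accessory subunit near the quinone site, ranged over 142 to 150 CPM across bladder libraries and 91.1 to 106 CPM across urethra libraries (0.57 ± 0.068, adjusted p = 0.000645). At E18.5 Ndufb8, in the membrane arm, led with 101, 91.8 and 85.0 CPM in bladder against 43.2, 64.8 and 48.2 CPM in urethra, 0.77 ± 0.15 (adjusted p = 0.00499), and Ndufa1, also of the membrane arm, with 64.1, 58.0 and 55.5 CPM against 30.3, 39.0 and 34.7 CPM, 0.72 ± 0.12 (adjusted p = 0.00243).

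Ndufa6, an accessory subunit that binds acyl carrier protein, was the only called exception to the lean of complex I toward bladder, at E18.5. At E14.5 it was not called between tissues (-0.01 ± 0.11, adjusted p = 0.958), its bladder libraries spanning 51.5 to 61.9 CPM and its urethra libraries 48.9 to 67.0 CPM, and Ndufb2, a membrane-arm subunit, was the other member of complex I below 0 (-0.19 ± 0.15, adjusted p = 0.33). At E18.5 its bladder libraries held 70.2, 65.7 and 58.9 CPM and its urethra libraries 77.8, 87.3 and 72.2 CPM, so the urethra was higher without overlap. The log2 fold change there was -0.34 ± 0.11 (adjusted p = 0.0389), but the call was lost in 5 of the 6 fits that left out 1 library, where adjusted p rose to as much as 0.162, and the sign turned to 0.05 on the pan-epithelial scale.

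Complex II, the only one that also belongs to the citric acid cycle, was called higher in bladder in 4 of 4 members at both stages. Sdhd, one of its membrane anchors, held 142, 134, 131 and 139 CPM in bladder and 86.0, 76.3, 86.1 and 78.1 CPM in urethra at E14.5. At E18.5 it held 155, 172 and 167 CPM in bladder and 76.7, 100.3 and 85.3 CPM in urethra. Sdhd thus had no overlap at either stage, with log2 fold changes of 0.71 ± 0.069 (adjusted p = 0.0004) and 0.86 ± 0.12 (adjusted p = 0.000901). The flavoprotein Sdha gave 0.52 ± 0.083 and 0.36 ± 0.12, the iron-sulphur subunit Sdhb 0.23 ± 0.059 and 0.38 ± 0.12, and the second anchor Sdhc 0.51 ± 0.075 and 0.49 ± 0.10. Of these, the Sdha and Sdhb calls at E18.5 were each lost in 5 of 6 fits that left out 1 library.

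Complex III had 7 of 8 members called higher in bladder at E14.5 and 5 of 8 at E18.5. Its small accessory subunits showed the largest differences: Uqcrq held 87.4, 89.3, 84.1 and 93.1 CPM in bladder and 54.4, 49.4, 54.0 and 53.6 CPM in urethra at E14.5, 0.71 ± 0.065 (adjusted p = 0.000329). At E18.5 Uqcr10 held 127, 125 and 125 CPM in bladder and 63.6, 83.2 and 60.8 CPM in urethra, 0.80 ± 0.13 (adjusted p = 0.00192). The core proteins Uqcrc1 and Uqcrc2 and the Rieske iron-sulphur protein Uqcrfs1 had smaller values, 0.44, 0.34 and 0.28 at E14.5 and 0.33, 0.33 and 0.26 at E18.5, the last not called. The hinge protein Uqcrh was not called at either stage (adjusted p = 0.229 and 0.123).

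Complex IV, cytochrome c oxidase, was split between its common subunits and its alternate isoforms. Of the 11 common nuclear subunits, 9 were called higher in bladder at each stage and 0 higher in urethra. Cox6a1 led them, with 157, 146, 148 and 158 CPM in bladder and 101, 87.1, 86.7 and 75.3 CPM in urethra at E14.5 and 187, 207 and 183 CPM against 97.7, 120.1 and 93.7 CPM at E18.5. Its log2 fold changes were 0.77 ± 0.090 (adjusted p = 0.000615) and 0.83 ± 0.12 (adjusted p = 0.000983). The 5 alternate isoforms, by contrast, had 1 called higher in bladder and 2 higher in urethra at E14.5, and 3 and 0 at E18.5.

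Complex V, the ATP synthase, had 16 of 17 members called higher in bladder at E14.5 and 9 of 17 at E18.5, with 0 called higher in urethra at both. Atp5a1 and Atp5b, the alpha and beta subunits of the catalytic head, had the highest levels per length of all members at E14.5, at 1623 and 1046 TPM (transcript level scaled to length, from the summed exon lengths in the tables) in bladder and 1282 and 837 TPM in urethra. Atp5g1, one of 3 genes for the same c-ring protein, had the largest difference at E14.5: 98.2, 115, 113 and 107 CPM in bladder against 57.9, 60.6, 65.9 and 49.3 CPM in urethra, 0.86 ± 0.10 (adjusted p = 0.000664). At E18.5 Atp5k, subunit e, led with 87.9, 80.4 and 81.3 CPM in bladder against 45.6, 59.9 and 44.9 CPM in urethra, 0.67 ± 0.13 (adjusted p = 0.00425). Of the 3 c-ring genes, all were called higher in bladder at both stages, and Atp5g1 made up 9.4% to 11.6% of its pair with Atp5g3 (counts per kilobase, group means).

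From E14.5 to E18.5 a subset of small accessory subunits rose, and the family's median lay 0.19 (bladder) and 0.14 (urethra) above that of all genes on the log2 scale. In bladder 27 of the 80 members were called higher and 4 lower at E18.5, where 40.3% of 18286 genes were called, 19.9% higher and 20.4% lower, so the share of members called was near that of all genes and leaned upward. In urethra 16 were called higher and 2 lower, where 33.0% of genes were called, 17.3% higher and 15.7% lower. The members' medians were 0.19 in bladder and 0.14 in urethra, against -0.005 and 0.001 over all genes. The urethra direction flips on the pan-epithelial scale, with 0 members higher and 50 lower, against 1055 and 8921 of 18286 genes. The all-gene median there was -0.757, with the members 0.15 above it. In bladder that scale gave 57 members higher and 0 lower, against 6001 and 303 of 18286 genes. The members' median was then 0.74 and the all-gene median 0.54, a distance of 0.20, against 0.19 on the trimmed-mean scale. In bladder 41 members lay wholly higher at E18.5 and 9 wholly lower, against 22.4% and 23.9% of genes, and in urethra 14 and 3, against 19.4% and 19.0%. The 2 stages were deposited as separate tables, so table and stage cannot be told apart.

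The stage counts rested on single libraries. In bladder the 31 calls fell to 18 without bladder E14.5 replicate 2, 16 without bladder E18.5 replicate 1 and 20 without bladder E18.5 replicate 2. In urethra the 18 calls fell to 3, 10 and 5 without urethra E14.5 replicate 2, 3 or 4, and to 4 without urethra E18.5 replicate 2. Calls that held in all 14 such fits numbered 14 higher and 1 lower in bladder, and 3 higher (Ndufa6, Ndufa13 and Cox8a) in urethra.

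The rise in bladder lay in accessory subunits of complexes I and III and in complex IV. Of the 28 accessory subunits of complex I, 14 were called higher and 1 lower at E18.5 (median log2 0.31), while of the 7 core subunits 0 were called higher and 1 lower (median -0.04). Of the 5 accessory subunits of complex III, 3 rose in bladder and 3 in urethra, and of its 3 core and Rieske proteins 0 were called in either tissue by edgeR or DESeq2, with 0 at an unadjusted p under 0.05. Of the 17 members of complex V, 2 were called higher and 1 lower in bladder and 0 in urethra by edgeR or DESeq2, with 2 in urethra at an unadjusted p under 0.05. On the pan-epithelial scale the bladder medians became 0.86 for the complex I accessory and 0.51 for its core subunits, a gap of like size with the core now above 0.

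Uqcrh, the hinge protein of complex III, held 134, 117, 130 and 119 CPM in bladder at E14.5 and 214, 179 and 195 CPM at E18.5, the largest rise outside the alternate isoforms (0.65 ± 0.12, adjusted p = 0.000961). In urethra it held 125, 102, 104 and 114 CPM and then 140, 184 and 129 CPM (0.44 ± 0.12, adjusted p = 0.0141), which missed the threshold when urethra E14.5 replicate 2 was left out (adjusted p = 0.0533) or urethra E18.5 replicate 2 was (0.0596). Ndufb8 rose in bladder from 61.0, 62.8, 62.5 and 66.3 CPM to the 85.0 to 101 CPM given above (0.55 ± 0.12, adjusted p = 0.0021). Against these, Ndufv1 fell in bladder from 173 to 186 CPM to 144, 155 and 143 CPM, by 0.27 ± 0.070 on the log2 scale (adjusted p = 0.00776), a direction that turned to 0.28 on the pan-epithelial scale.

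In all, 8 members were called higher at E18.5 in both tissues: the complex I accessory subunits Ndufa8, Ndufa13, Ndufb3, Ndufb10 and Ndufb11, then Uqcrh, Cox4i1 and Cox7b. Of all 18286 genes 6.28% were called higher in both. Of the 8, Ndufa13 alone kept both calls in each fit that left out 1 library, and in urethra Ndufa8 lost its call in 9 of 14 such fits, Ndufb11 in 7, Cox7b in 6, Cox4i1 in 4, Ndufb10 in 3, and Ndufb3 and Uqcrh in 2 each. The lower calls in bladder were Ndufv1, Ndufa10, Sdha and Atp5g1, and those in urethra Ndufs1 and Cox4i2. Of these 6, Ndufv1 alone was called in each fit that left out 1 library. Ndufa6 rose in urethra from 67.0, 50.3, 48.9 and 52.3 CPM to 77.8, 87.3 and 72.2 CPM (0.53 ± 0.12, adjusted p = 0.00461), without overlap, and this call held in all 14 such fits.

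**Figure D3:**
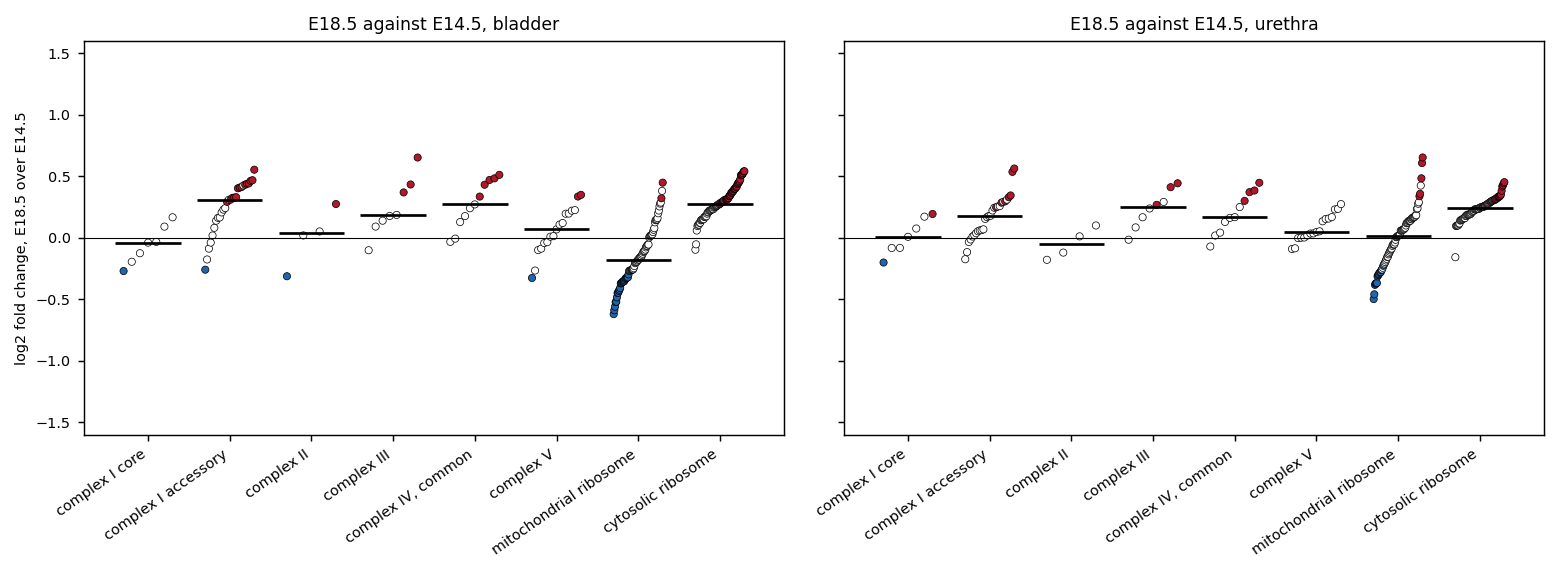
log2 fold change of E18.5 over E14.5 in bladder (left) and urethra (right) for classes of members and, for comparison, the mitochondrial and cytosolic ribosomal proteins, each gene 1 point in rising order with a line at the class median. Red points are called higher and blue points lower at E18.5 on the trimmed-mean scale (in urethra the members turn negative on the pan-epithelial scale); in bladder the complex I accessory median is 0.31 and the core median -0.04, the cytosolic ribosome median 0.28 and the mitochondrial ribosome median -0.18.

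The tissue difference itself changed between the stages in 4 of the 80 members, where 22.9% of 18286 genes were called for the interaction of tissue and stage, and all 4 were positive, meaning more toward bladder at E18.5. They were Cox4i2, Cox6b2, Ndufa1 (0.41 ± 0.13, adjusted p = 0.037) and Ndufc2 (0.40 ± 0.13, adjusted p = 0.0418), the last an accessory subunit of the complex I membrane arm. Ndufa1 and Ndufc2 lost the call in 9 and 10 of the 14 fits that left out 1 library, with adjusted p up to 0.122 and 0.136. Cox4i2 and Cox6b2 kept it in all 14. The other 76 members were not called. DESeq2 called 5 members, and the count was 11 (all positive) without urethra E18.5 replicate 2 and 8 (4 of them negative) without urethra E14.5 replicate 1. On the pan-epithelial scale 79 were called positive, against 12500 of 18286 genes, with the all-gene median at 1.295 and the members 0.053 above it.

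Cox4i2, the alternate form of subunit 4 known from lung and from hypoxia, changed sides between the stages. It held 1.43, 0.569, 1.33 and 0.907 CPM in bladder and 6.64, 8.28, 6.70 and 8.90 CPM in urethra at E14.5. At E18.5 it held 17.6, 14.6 and 14.1 CPM in bladder and 3.97, 4.79 and 5.17 CPM in urethra. Urethra was higher at the first stage and bladder at the second, each without overlap: the log2 fold change of bladder over urethra was -2.88 ± 0.32 (7.36-fold lower, adjusted p = 0.000528) and then 1.67 ± 0.19 (3.18-fold higher, adjusted p = 0.000351). Within bladder it rose by 3.87 ± 0.28 (14.6-fold, adjusted p = 2.4e-06), and the interaction was 4.58 ± 0.38 (adjusted p = 6.61e-05). In urethra it fell by 0.71 ± 0.26 (adjusted p = 0.0498), a call lost in 10 of the 14 fits that left out 1 library.

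Its common partner Cox4i1 was far more abundant and did not change sides, with bladder libraries at 411 to 492 CPM and urethra libraries at 276 to 378 CPM at E14.5, and 569 to 599 CPM and 376 to 450 CPM at E18.5. The tissue differences of Cox4i1 were 0.46 ± 0.11 (adjusted p = 0.0123) and 0.50 ± 0.11 (adjusted p = 0.00873). In counts per kilobase the share of Cox4i2 in the pair was 0.469% ± 0.153 (SD, n = 4) in bladder and 4.69% ± 0.99 (n = 4) in urethra at E14.5, and 4.90% ± 0.53 (n = 3) and 2.24% ± 0.35 (n = 3) at E18.5. The alternate form thus stayed a small part of subunit 4 RNA in every group, lowest in bladder at E14.5.

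Cox6b2, the form of subunit 6B known from testis, had the same order of groups over a smaller range. It held 6.82, 6.49, 7.59 and 6.08 CPM in bladder and 7.92, 11.5, 10.2 and 11.4 CPM in urethra at E14.5, and 18.51, 14.4 and 12.5 CPM against 6.75, 9.14 and 6.43 CPM at E18.5. The groups did not overlap at either stage, with log2 fold changes of -0.64 ± 0.17 (adjusted p = 0.0165) and 0.96 ± 0.22 (adjusted p = 0.00876). The E14.5 value missed the threshold when bladder replicate 4 (adjusted p = 0.0521) or urethra replicate 2 (0.0545) was left out. The rise in bladder was 1.16 ± 0.19 (adjusted p = 0.000405), the urethra value -0.46 ± 0.19 (adjusted p = 0.0817) and the interaction 1.63 ± 0.27 (adjusted p = 0.00209). Its share of the pair with Cox6b1 was 2.14% ± 0.10, 4.80% ± 1.00, 4.28% ± 0.76 and 2.84% ± 0.17 in bladder and urethra at E14.5 and bladder and urethra at E18.5.

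Between tissues, mesenchymal markers changed sides as Cox4i2 and Cox6b2 did. Of the 15 listed, 5 were higher in urethra and 0 higher in bladder at E14.5 (median log2 -1.03), 12 were higher in bladder and 0 in urethra at E18.5 (1.96), and 14 had a positive interaction. With stage in urethra, where Cox4i2 fell, 1 of the 15 was called higher and 2 lower (median -0.084). Bladder at E18.5, where Cox4i2 and Cox6b2 were highest, also held the most smooth muscle RNA (5036 to 13197 CPM summed over 10 genes, against at most 2333 CPM elsewhere) and endothelial RNA (314 to 440 CPM over 10 genes, against at most 227 CPM elsewhere), none of these genes at 0 in a group. It also held the most immune RNA (193 to 266 CPM over 10 genes, against at most 84.0 CPM elsewhere). The same was true of adipocyte RNA (428 to 953 CPM over 6 genes, against at most 134 CPM elsewhere), with Adipoq and Lep at 0 there. Erythroid and skeletal muscle sums had their highest means there with overlap between groups, and the neural sum had its lowest mean there. The 8 pericyte genes summed to 685 to 1244 CPM there and to 703 to 799 CPM in urethra at E18.5, which overlap, and to 319 to 394 and 379 to 656 CPM in bladder and urethra at E14.5, where Vtn was at 0 in urethra. Within groups, the libraries of bladder and of urethra at E18.5 had the same order for Cox4i2 as for the mesenchymal sum, those of bladder at E14.5 did except for the highest pair, and those of urethra at E14.5 did not. With a mesenchyme score as a covariate Cox4i2 was still called between tissues at E14.5 (adjusted p = 0.00401), with stage in bladder (0.00812) and for the interaction (0.0263), but not between tissues at E18.5 (0.563), where this fit called 3 genes of all those tested. Cox6b2 was then called at neither stage between tissues (adjusted p = 0.204 and 0.997), nor with stage in bladder (0.384) or for the interaction (0.436). Of 18286 genes, the fit with this score called 654 with stage in bladder and 65 for the interaction. The part of RNA from any of these other cell types in either result was not tested.

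**Figure D4:**
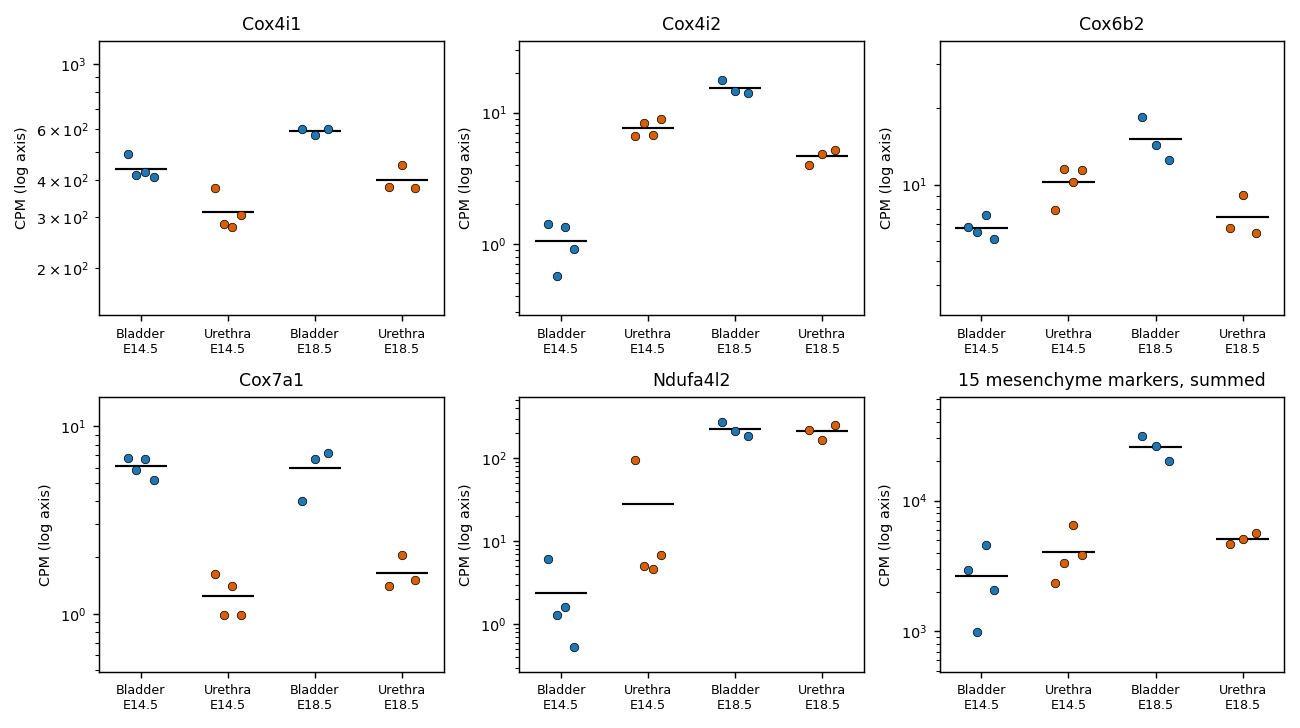
CPM of Cox4i1, Cox4i2, Cox6b2, Cox7a1 and Ndufa4l2 and the sum of 15 mesenchymal markers in each library (log axes, each panel with its own range), with a line at the group mean, for bladder and urethra at E14.5 (4 libraries each) and E18.5 (3 each). Cox4i2 is lowest in bladder at E14.5 (0.569 to 1.43 CPM) and highest in bladder at E18.5 (14.1 to 17.6 CPM), the mesenchymal sum also peaks there (20240 to 31058 CPM), and Cox7a1 stays higher in bladder at both stages.

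Cox7a1, the muscle-enriched form of subunit 7A, had the largest difference toward bladder at both stages and did not follow that pattern. It held 6.79, 5.89, 6.67 and 5.18 CPM in bladder and 1.63, 0.984, 1.40 and 0.985 CPM in urethra at E14.5, and 4.00, 6.74 and 7.18 CPM against 1.41, 2.06 and 1.51 CPM at E18.5. The groups were far apart at each stage, 4.79-fold at E14.5 (log2 2.26 ± 0.24, adjusted p = 0.000495) and 3.45-fold at E18.5 (1.79 ± 0.32, adjusted p = 0.00301), and both calls held on the pan-epithelial scale and in each fit that left out 1 library. With the mesenchyme score as a covariate the E14.5 call held (adjusted p = 0.00401). The E18.5 call did not (0.316), where this fit called 3 of 17513 genes. Stage changed it in neither tissue by the test (adjusted p = 0.926 and 0.266), and the interaction was -0.45 (adjusted p = 0.425). Its share of the pair with Cox7a2 was 11.2% ± 0.98 and 2.87% ± 0.59 at E14.5 and 8.01% ± 2.60 and 3.38% ± 0.29 at E18.5, in bladder and urethra. Of the skeletal muscle markers, 0 of 9 tested were higher in bladder and 3 higher in urethra at E14.5, with Myf6 at 0 in bladder, and 3 and 7 of 12 at E18.5 (median -2.57). Their sums overlapped between tissues at both stages, at 6.82 to 15.3 CPM (bladder) and 12.9 to 63.6 CPM (urethra) at E14.5, and 554 to 1775 CPM (bladder) and 288 to 567 CPM (urethra) at E18.5. Their part in the difference of Cox7a1 was not tested.

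Cox7a2l, a relative of that subunit that joins complexes III and IV into supercomplexes, was among the few members with no lean toward bladder. It held 158, 120, 120 and 119 CPM in bladder and 157, 137, 116 and 119 CPM in urethra at E14.5 (-0.06 ± 0.13, adjusted p = 0.737), and 151, 150.3 and 143 CPM against 172, 161 and 172 CPM at E18.5 (-0.24 ± 0.092, adjusted p = 0.07). The E18.5 groups did not overlap although the test missed the threshold. Cox6c2, a single-exon copy of Cox6c that may share reads with it, held 1.71 to 4.43 CPM over all libraries and was called in no comparison. Among the genes below the count rule, the muscle form Cox6a2 had 10, 16 and 8 counts in urethra at E18.5 and at most 4 in any other library. Cox8b, also a muscle form, reached 16 counts in 1 urethra library of E18.5, Cox7b2 at most 5 counts, and Cox8c had 0 in every library.

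Ndufa4l2, a hypoxia-responsive relative of Ndufa4 that the name rule does not take in, rose with stage in both tissues. It held 6.17, 1.31, 1.61 and 0.538 CPM in bladder and 95.2, 5.04, 4.62 and 6.81 CPM in urethra at E14.5, then 274, 211 and 186 CPM and 221, 167 and 249.7 CPM at E18.5. Both tissues were thus far higher at E18.5, by 6.52 ± 1.1 in bladder (adjusted p = 0.000636) and 2.93 ± 0.96 in urethra (adjusted p = 0.0322), and replicate 1 stood apart from the other urethra libraries of E14.5. The urethra value was 5.27 ± 0.59 (adjusted p = 3.85e-05) without that replicate, and it missed the threshold when any of the other urethra libraries was left out (adjusted p up to 0.0805). Ndufa4 itself held 92.2 to 180 CPM over all 14 libraries and was called for tissue at neither stage.

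Other genes of respiration leaned toward bladder as well, most clearly at E14.5. Of 16 citric acid cycle genes, 15 were called higher in bladder at E14.5 and 8 at E18.5, with 0 higher in urethra, among them fumarase Fh1 (0.56 ± 0.072 and 0.46 ± 0.099) and the dehydrogenase subunit Dlst (0.53 ± 0.055 at E14.5, adjusted p = 0.000462). Of 77 mitochondrial ribosomal proteins, which translate the mitochondrial subunits, 53 and then 12 were called toward bladder and 0 toward urethra, and of 47 assembly factors 25 and then 5, with 1 (Nubpl) higher in urethra at E18.5. The medians of these 3 lists were 0.42, 0.37 and 0.34 at E14.5 and 0.29, 0.20 and 0.13 at E18.5, where the members' medians were 0.41 and 0.40. The interaction, which tests the change between the stages, was called negative in 1 of the 16, 9 of the 77 and 7 of the 47 genes, against 10.7% of all genes, and positive in 0, 0 and 1. Of 72 cytosolic ribosomal proteins 0 were called by edgeR at either stage (medians 0.00 and 0.01), with 1 and 2 at an unadjusted p under 0.05 and 0 and 2 called by DESeq2. These directions hold on the trimmed-mean scale; on the pan-epithelial scale the E14.5 medians became -0.52, -0.59, -0.60 and -0.93 in the same order, so the cytosolic ribosome still lay below the other 3 lists.

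**Figure D5:**
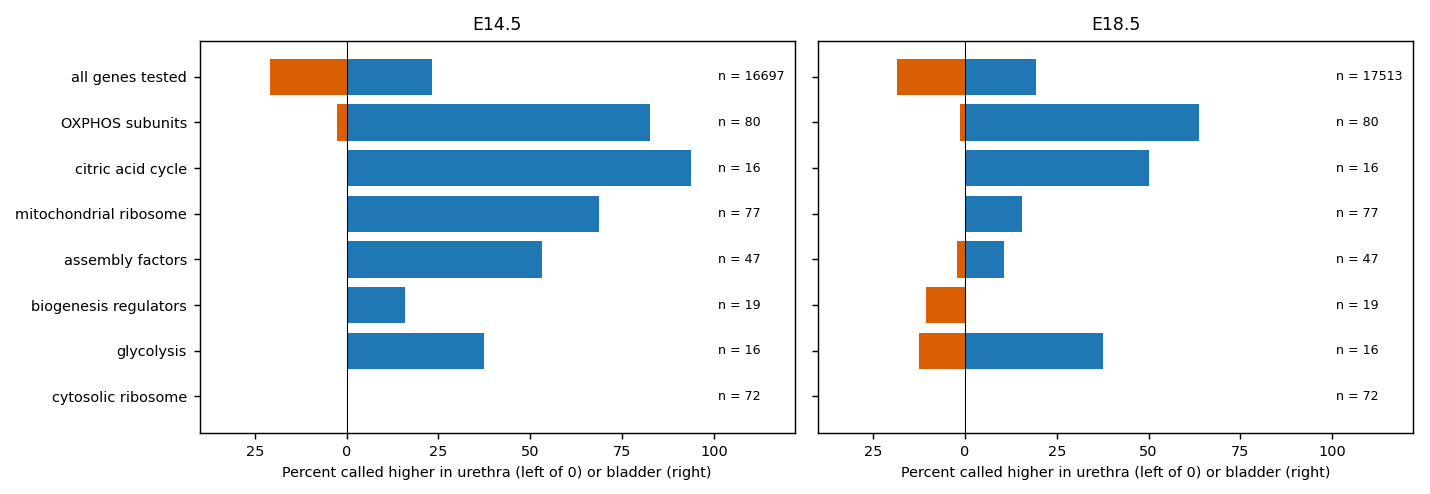
Percent of the tested genes of each list that were called higher in bladder (blue, right of 0) or higher in urethra (orange, left of 0) at E14.5 and E18.5 on the trimmed-mean scale, with the number tested at the right. The 80 members and the citric acid cycle genes reach far beyond all genes tested (23.1% and 20.9% at E14.5), a direction that flips for the members at E14.5 on the pan-epithelial scale, and the 72 cytosolic ribosomal proteins have no call.

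Related genes outside the name rule leaned toward bladder in part. Slc25a4 was not called at E14.5 (0.008, adjusted p = 0.956) but was at E18.5 (0.79, adjusted p = 0.00203). Cyc1 was not called at E18.5 (0.31, adjusted p = 0.0859). Of 13 tested related genes outside the name rule, 9 were higher in bladder and 1 (Ndufa4l2) higher in urethra at E14.5, and 5 and 0 at E18.5. The Ndufa4l2 value rested on urethra replicate 1: it was -3.55 ± 1.2 (adjusted p = 0.0456, 11.7-fold) with that library and -1.21 ± 0.71 (adjusted p = 0.189, 2.31-fold) without it, and the groups overlapped. Slc25a5, an ADP/ATP carrier, stood at 399 ± 11 CPM (SD, n = 4) in bladder and 230 ± 22 CPM in urethra at E14.5 (0.77 ± 0.080, adjusted p = 0.000465). Cyc1, the cytochrome subunit of complex III, stood at 164 ± 4.9 and 110 ± 7.2 CPM (0.54 ± 0.065, adjusted p = 0.000656), and Etfb, which passes electrons from fatty acid oxidation, at 15.4 ± 1.1 and 6.72 ± 0.84 CPM (1.16 ± 0.14, adjusted p = 0.000699).

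Glycolysis and cell division leaned the same way in part. Of 16 glycolytic genes, 6 were higher in bladder and 0 in urethra at E14.5, and 6 and 2 at E18.5, the latter Hk2 and Aldoc (-1.32 ± 0.18, adjusted p = 0.000743). Of 19 proliferation genes, 9 were higher in bladder at E14.5 and 19 at E18.5, with 0 higher in urethra, and their summed CPM was 2293 to 3356 in bladder and 2031 to 2847 in urethra at E14.5, and 2025 to 2332 and 908 to 1090 at E18.5. The members' median stayed at 0.41 and 0.40 while that of the proliferation genes went from 0.35 to 1.35. The part of cell division in the members' difference was not tested.

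Regulators of mitochondrial biogenesis did not follow the subunits. Of 19 tested on the trimmed-mean scale, 3 were higher in bladder and 0 in urethra at E14.5, and 0 and 2 at E18.5. The shares over all genes tested were 23.1% toward bladder and 20.9% toward urethra at E14.5, and 19.3% and 18.6% at E18.5. The regulators' median log2 fold change was -0.028 at E14.5 and -0.129 at E18.5, against -0.035 and -0.026 over all genes. The regulators higher in bladder at E14.5 were the polymerase Polg (0.44 ± 0.093), the rRNA methyltransferase Tfb1m (0.71 ± 0.15) and the nuclear receptor Esrra (0.80 ± 0.22, adjusted p = 0.0172). At E18.5 the co-activator Ppargc1a was lower in bladder, at 5.71 ± 0.80 CPM (SD, n = 3) against 15.2 ± 4.9 CPM in urethra (-1.47 ± 0.27, adjusted p = 0.0033), as was Esrrg, a receptor related to Esrra (-1.98 ± 0.49, adjusted p = 0.0136). Nrf1, whose core letters are shown above, was called for tissue at neither stage (-0.16, adjusted p = 0.21, and -0.13, adjusted p = 0.373).

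With stage, regulators and the translation machinery of mitochondria fell in bladder on the trimmed-mean scale, where the subunits did not. In bladder 12 of the 19 regulators were called lower at E18.5 and 1 (Ppargc1b) higher, with Ppargc1a falling from 23.1 ± 2.6 to 5.71 ± 0.80 CPM (by 2.02 ± 0.22 on the log2 scale, adjusted p = 2.82e-05) and Tfam, which packages mitochondrial DNA, from 82.5 ± 3.2 to 58.8 ± 2.4 CPM (adjusted p = 0.000191). Of the 77 mitochondrial ribosomal proteins 27 were called lower and 2 higher, and of the 47 assembly factors 15 and 1, against 4 and 27 of the 80 members. Of all genes, 20.4% were called lower and 19.9% higher in bladder. The downward direction of these lists holds on the trimmed-mean scale and flips on the pan-epithelial one. There 16 mitochondrial ribosomal proteins were higher and 0 lower in bladder (median 0.36, against 0.74 for the members). Of all 18286 genes, that scale called 6001 higher and 303 lower. Of the 72 cytosolic ribosomal proteins, 34 rose in bladder by the test and 18 in urethra, with 0 lower in both and medians of 0.28 and 0.24, where 19.9% and 17.3% of all genes were called higher. On the pan-epithelial scale the urethra direction flips, with 33 lower and 0 higher, against 8921 and 1055 of 18286 genes, and a median of -0.50. In urethra, on the trimmed-mean scale, 5 regulators were called lower and 2 higher, 13 mitochondrial ribosomal proteins lower and 5 higher. Of all genes, 15.7% were called lower and 17.3% higher there. The share of mitochondrial ribosomal proteins called lower in urethra was thus near that of all genes.

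The tables do not state how reads on opposite strands were assigned, and 25 members share exon bases with a gene on the other strand. In 9 of them the shared part exceeded 10% of exon bases. The opposite-strand neighbour had many reads of its own in 4 of these: Tmco6 beside Ndufa2 (7833 and 29511 counts over all libraries), Mrpl47 beside Ndufb5 (7008 and 31126), Rbm10 beside Ndufb11 (32584 and 33459) and Gabpa beside Atp5j (33112 and 45991). In the other 5 (Ndufa13, Ndufb6, Uqcrc2, Cox5a and Atp5o) it had at most 1958 counts, against 20181 or more for the member.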

How the data were processed

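RNA-seq libraries of 14 pools of epithelium were compared by group as labelled. Per the labels' protocols, 60 ng of total RNA was poly(A)-selected, prepared with a directional kit and read as 100 bp pairs. Listed tools are bcl2fastq, HISAT2 2.2.1 and SAMtools 1.9, with genome GRCm38, per the submitters' processing notes. Counting tool, strand setting and annotation: not given in the sources used here. The authors deposited raw counts per gene in 2 tables, 1 per stage, with summed exon lengths. Library totals were 21.1 M to 36.8 M counts (M for 1000000), and each member had at least 20 counts in each library.

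Counts were fitted with edgeR 4.0.16 (R 4.3.3; limma 3.58.1) by quasi-likelihood, with TMM normalisation, filterByExpr and Benjamini-Hochberg adjustment over all genes tested, called under 0.05. Tissue tests used the libraries of that stage alone; stage and interaction tests used all 14. Positive values are higher in bladder or at E18.5. SE is the log2 fold change divided by the root of F. CPM used TMM effective sizes over the 14 libraries; TPM and isoform shares used the table's exon lengths. DESeq2 1.42.0 was an alternative, as were other scalings, no filter, a mesenchyme covariate, a replicate block and leaving out each library. The fitting code was tested on simulated data.

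The members, lists and rules were chosen with earlier results of these data known. Named genes were the isoform pairs, up to 2 members per complex, comparison and direction with the largest called change, no overlap between groups and a mean of at least 5 CPM, the strongest member against its complex, up to 6 members by interaction, those nearest the count rule, and up to 3 called genes per list with the strongest exception. Of these the text gives the ones its results turn on. Outside that rule, Ndufv1 and Ndufa6 at E14.5, Sdhb, Sdhc at E14.5, the complex III core proteins, Tfam and Nrf1 were chosen after their values were seen. So were Slc25a4 at E14.5 and Cyc1 at E18.5. The p-values measure the spread between pooled libraries. Whether each E14.5 library is a separate litter is not settled, since the extraction notes name 3 litters for each kind of sample.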

Additional observations from a re-analysis of the deposited data

Results flagged for a closer look

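Within groups of 4 libraries, 62 sets of member values were tested for a single library far from the rest, and chance marks about 1 in 20 of such sets. In urethra at E14.5, the lowest library of Uqcrq (49.4 CPM) and of Atp5k (47.9 CPM) lay apart from the other 3, both in replicate 2, as did the highest library of Uqcr11 (55.0 CPM), Sdhc (134 CPM) and Atp5l (81.4 CPM), all in replicate 1. In bladder at E14.5 the lowest library of Ndufs1 (123 CPM, replicate 3) and the highest of Cox7a2l (158 CPM, replicate 1) lay apart. Replicate 1 of urethra at E14.5 also had the highest summed member level of its group, 9383 CPM.

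The tissue difference changed between the stages, by the interaction test of edgeR, for Cox4i2 (4.58 on the log2 scale), Cox6b2 (1.63), Ndufa1 (0.41) and Ndufc2 (0.40). Ndufa1 and Ndufc2 leaned toward bladder at both stages, more so at E18.5, and Cox4i2 and Cox6b2 leaned toward urethra at E14.5 and bladder at E18.5.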

How the results depend on the processing

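The scaling decides the direction of the family at E14.5 and with stage. With libraries scaled to the 7 pan-epithelial markers, 39 members were called between tissues at E14.5 (1 higher in bladder). That scale called 57 with stage in bladder (57 higher), 50 with stage in urethra (0 higher) and 79 for the interaction. Among all genes it called 11833 of 16697 between tissues at E14.5 (540 higher in bladder). Of 18286 genes it called 6304 with stage in bladder (6001 higher), 9976 in urethra (1055 higher) and 12790 for the interaction. On that scale 72 of the 80 members changed sign between tissues at E14.5, 2 at E18.5, 20 with stage in bladder, 63 in urethra and 28 for the interaction. Among the called genes chosen for naming, those that changed sign were, between tissues at E14.5, Ndufa9 -0.36, Sdhd -0.25, Sdha -0.41, Uqcrq -0.25, Uqcr11 -0.22, Cox6a1 -0.16, Atp5g1 -0.10 and Atp5g3 -0.36, and at E18.5 Ndufa6 0.054. With stage they were Ndufv1 0.28, Ndufa10 0.29, Sdha 0.23 and Atp5g1 0.23 in bladder, and Ndufv3 -0.14, Ndufa6 -0.19, Uqcrh -0.30, Uqcrb -0.48, Cox8a -0.35 and Cox7a2l -0.37 in urethra. Scaling by library size alone gave 30 calls between tissues at E18.5 (28 higher in bladder) and 10 with stage in urethra. With the mesenchyme covariate 0 members were called between tissues at E18.5, 1 with stage in bladder and 1 for the interaction. Among all genes that fit called 3 of 17513, 654 of 18286 and 65 of 18286 in the same order. Ndufa10 with stage in bladder stood at 0.036 in it. Without the filter on low counts 20 were called with stage in bladder, 11 in urethra and 2 for the interaction. The cause of these changes was not tested.

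The replicate block gave 30 calls between tissues at E18.5 (30 higher in bladder) and 67 at E14.5. The labels do not say that a replicate number marks a shared litter, and same-numbered bladder and urethra libraries correlated at -0.104 to 0.391 at E14.5 (3 of 4 pairs over 0.1) and -0.189 to 0.138 at E18.5 (1 of 3), so they were not treated as pairs, and not every library correlated best with its own number. No paired analysis was possible because the stages come from different litters for the stage comparisons. Leaving out 1 library at a time gave 58 to 70 calls between tissues at E14.5, 23 to 67 at E18.5, 16 to 41 with stage in bladder, 3 to 23 in urethra and 2 to 11 for the interaction, the last highest without urethra E18.5 replicate 2. Depth limits the alternate isoforms most: Cox4i2 had as few as 20 counts in a library.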
